A study of Sus scrofa with 18 samples.

Results

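The data describe the chromatin around 7 genes for transcription factors that pattern uterine and other visceral mesenchyme: WT1, EMX2, NR2F2, HAND2, TCF21, MEIS1 and MEIS2. The genes were taken by name from a list and not by a threshold on their peaks, and all 7 were placed on the Sscrofa11.1 assembly among 28210 RefSeq genes. Every H3K4me3 or H3K27ac peak that overlapped a gene, or the 10 kb on either side of it, was taken as a peak of that gene. The material was hand-dissected myometrium from the mesometrial side of the uterus of Yorkshire gilts, from which the endometrium had been scraped. GD15M_CM is the inner circular muscle of gilts on day 15 of pregnancy, GD15M_LM is the outer longitudinal muscle at the same stage, and CD15M_CM is the circular muscle of cyclic gilts on day 15 of the oestrous cycle. Each group had 2 gilts, and 18 CUT&Tag libraries, in which an antibody guides a transposase to cut and tag the DNA beside a histone mark, covered both marks and an IgG control. The peaks were called on the pooled gilts of a group, which gave 6 lists, so a value below has no replicate error, no test between groups could be made, and the lists give no read depth behind it. A longitudinal layer of cyclic gilts was not analysed here.

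H3K4me3 is a histone mark of active promoters, whereas H3K27ac marks both active promoters and enhancers. WT1 is a zinc finger factor of the urogenital ridge, of the mesothelium and of uterine stroma, and EMX2 is a homeobox factor without which the Müllerian ducts do not form. NR2F2 (COUP-TFII) is an orphan nuclear receptor of mesenchyme that is required in uterine stroma for implantation. HAND2 is a basic helix-loop-helix factor that progesterone induces in uterine stroma, and TCF21 is a related factor of fibroblast and smooth muscle precursors. MEIS1 and MEIS2 are TALE homeobox factors that bind DNA together with PBX and HOX proteins. The gene table gives no strand, so the lower-coordinate and upper-coordinate ends of a gene are named below, and which of them is the start of transcription was not determined.

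All 7 genes held peaks of both marks in all 3 tissues. Each peak was given a percentile by ordering its list on the fold enrichment that the peak caller gave, and the highest peak of a gene is used as its level. Across the 7 genes the median percentile of the highest H3K4me3 peak was 89.0 in GD15M_CM, 91.7 in GD15M_LM and 93.9 in CD15M_CM, against 82.5, 81.3 and 83.4 for all genes with a peak. For H3K27ac the medians were 92.8, 99.4 and 99.6, against 88.7, 85.5 and 87.3 for all genes with a peak. A longer window can hold more peaks from which the highest is taken, and these medians were not adjusted for that. The windows of MEIS1 and MEIS2 measured 160.8 and 229.4 kb and held 28 and 22 H3K27ac peaks in CD15M_CM. Of all genes, 64.5%, 65.8% and 66.2% had an H3K4me3 peak in the same window and 68.3%, 66.9% and 70.6% an H3K27ac peak, in the same order of tissues.

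Most of the genes ranked high by the bases that peaks covered, for both marks. Ranked by the bases that H3K4me3 peaks covered, 6 of the 7 genes were in the top 5% of all genes in GD15M_CM, in GD15M_LM and in CD15M_CM, where the background is 5% by construction. TCF21 was the exception in each tissue. For H3K27ac the number in the top 5% was 4 in GD15M_CM, 5 in GD15M_LM and 5 in CD15M_CM. Long genes have long windows, and MEIS1 and MEIS2 ranked lower when the covered share of the window was used, at percentiles of 81.8 and 66.5 for H3K4me3 in GD15M_CM. H3K4me3 peaks longer than 10 kb were found at 5 of the 7 genes in each tissue, namely WT1, EMX2, NR2F2, MEIS1 and MEIS2. Of all peaks of the H3K4me3 list, 0.190% were as long in GD15M_CM, 0.401% in GD15M_LM and 0.369% in CD15M_CM. These are shares of peaks and not of genes, so they are no background for the 5 of 7 genes. The share of all genes with such a peak is not given. For H3K27ac, WT1 alone had a peak longer than 10 kb, in each tissue.

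**Figure D1:**
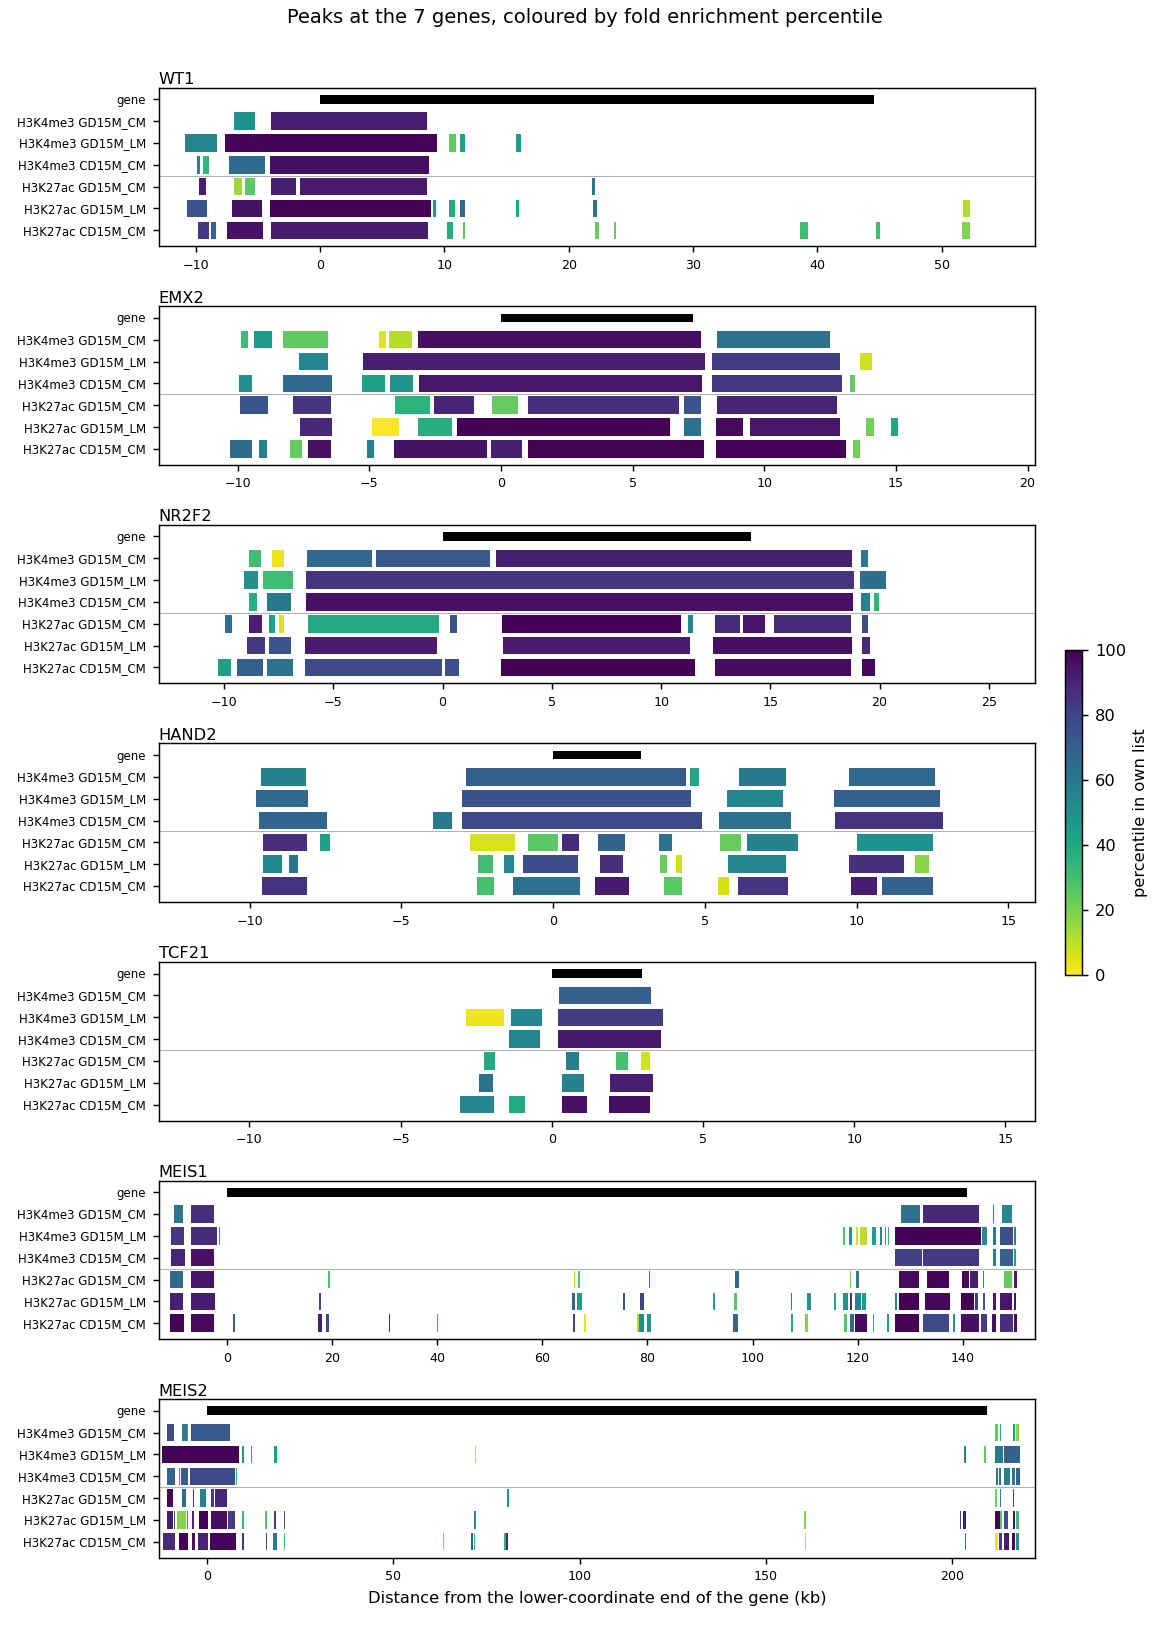
Peaks at the 7 genes, 1 panel per gene, with distance in kb from the lower-coordinate end of the gene on the x axis and the 6 lists on the y axis (H3K4me3 above the grey line, H3K27ac below). The black bar is the gene, each coloured bar is a peak, and the colour is the percentile of its fold enrichment in its own list. WT1 and MEIS2 were marked mainly at the lower end and MEIS1 at the upper end, while the longest H3K4me3 peak of NR2F2, 25.1 kb in GD15M_LM, reached past both ends of the gene.

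WT1 (chr2:28411467-28456007) was marked around its lower end and not at its upper end in all 3 H3K4me3 lists. The main H3K4me3 region, chr2:28403831-28420875, ran from -7.64 to 9.41 kb of the lower end, and the 3 kb on either side of the upper end held no H3K4me3 peak in any tissue. The highest H3K4me3 peak had a fold enrichment of 21.3 in GD15M_CM, 40.0 in GD15M_LM and 32.3 in CD15M_CM, at percentiles of 91.5, 99.2 and 96.8. The longest peak measured 12.6, 17.05 and 12.8 kb in the same order. For H3K27ac the percentiles were 92.8, 99.96 and 95.5, so GD15M_LM ranked first for both marks and GD15M_CM last. The highest H3K27ac peak of GD15M_LM spanned 12.9 kb over the lower end, while in CD15M_CM the highest peak lay from -7.50 to -4.60 kb. The lower end of WT1 shares 146 bases with a long noncoding RNA gene, LOC102161978, and the main region covers the end of that gene too, so signal at this end cannot be assigned to 1 of them.

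EMX2 (chr14:127649675-127656972) was covered from end to end by H3K4me3 and nearly so by H3K27ac. The main H3K4me3 region, chr14:127644410-127657413, was held by 1 peak in GD15M_LM and by 3 peaks in each of the other tissues, and a second region followed from 8.01 to 12.9 kb. The fold enrichment of the highest H3K4me3 peak was 25.4 in GD15M_CM, 26.9 in GD15M_LM and 28.3 in CD15M_CM, at percentiles of 96.2, 91.7 and 93.9. These values lay close together, and EMX2 was the only 1 of the 7 genes at which GD15M_CM ranked first for H3K4me3. For H3K27ac the percentiles were 90.2, 99.9 and 99.9, and the covered bases were 17.2 kb in GD15M_CM, 17.2 kb in GD15M_LM and 19.03 kb in CD15M_CM. The second region was higher in GD15M_LM and CD15M_CM than in GD15M_CM for H3K4me3, at percentiles of 82.2 and 83.7 against 63.7. EMX2 shares 132 bases at its lower end with LOC102164998, a long noncoding RNA gene.

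NR2F2 (chr7:83076119-83090250) carried the longest H3K4me3 peaks of the 7 genes. Its region chr7:83069859-83094932 was a single peak of 25.1 kb in GD15M_LM and of 25.0 kb in CD15M_CM, and 3 peaks in GD15M_CM, of which the longest measured 16.3 kb. The highest H3K4me3 peak had a fold enrichment of 21.0, 22.4 and 30.8 in GD15M_CM, GD15M_LM and CD15M_CM, at percentiles of 91.2, 84.7 and 95.9. GD15M_LM thus ranked lowest by enrichment although its covered bases, 28.2 kb, exceeded the 25.9 kb of GD15M_CM and the 27.2 kb of CD15M_CM. For H3K27ac the percentiles were 99.4, 96.4 and 99.7. The H3K27ac peaks left a gap between 0.766 and 2.66 kb that H3K4me3 covered in each tissue apart from a short break in GD15M_CM. No region at NR2F2 was found in a single tissue, and 4 of 4 H3K4me3 and 6 of 8 H3K27ac regions were found in all 3. A protein-coding gene, LOC102160410, overlaps NR2F2 by 6017 bases and shares its peaks.

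HAND2 (chr14:16460089-16462979) had broad H3K4me3 but short H3K27ac peaks. Its central H3K4me3 region, chr14:16457093-16465004, extended from -2.996 to 4.92 kb and was present in all 3 tissues, with further regions below and above the gene. The highest H3K4me3 peak had a fold enrichment of 11.3 in GD15M_CM, 17.2 in GD15M_LM and 21.6 in CD15M_CM, at percentiles of 70.3, 75.01 and 85.5. In CD15M_CM that peak was not over the gene but in the region from 9.25 to 12.8 kb. The longest H3K27ac peak measured 2.49, 1.92 and 2.2 kb, against 7.27, 7.53 and 7.90 kb for H3K4me3. HAND2 was the only 1 of the 7 genes with fewer H3K27ac-covered bases in GD15M_LM, 8.96 kb, than in GD15M_CM, 11.0 kb, and CD15M_CM was between them at 10.5 kb. With the strict peak threshold (5-fold enrichment or more, with −log10 p no lower than 10) this direction turned: the log2 ratio of covered bases was 2.25 in GD15M_LM and 1.85 in CD15M_CM over GD15M_CM, and GD15M_LM ranked 25.2 percentile points higher instead of 1.35 lower. A protein-coding gene, LOC100517194, lies 872 bases away and within the window.

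TCF21 (chr1:29975280-29978273) was the least covered of the 7 genes for both marks and in every tissue. Its main H3K4me3 region, chr1:29975487-29978968, was 3.48 kb long and lay over the gene. The highest H3K4me3 peak had a fold enrichment of 10.8 in GD15M_CM, 21.0 in GD15M_LM and 28.2 in CD15M_CM, at percentiles of 69.2, 82.3 and 93.7. For H3K27ac the percentiles were 57.1, 91.1 and 96.2. GD15M_CM was therefore lowest for both marks, by 13.1 and 34.0 percentile points below GD15M_LM and by 24.6 and 39.1 points below CD15M_CM. H3K27ac covered 1.49 kb in GD15M_CM, where no peak at TCF21 was longer than 0.430 kb, 2.62 kb in GD15M_LM and 3.84 kb in CD15M_CM. No other RefSeq gene lies in the window. With a window of 50 kb, in which peaks further out can be the highest, the difference between GD15M_LM and GD15M_CM turned to -11.6 percentile points for H3K4me3 and -5.93 for H3K27ac, and that between CD15M_CM and GD15M_CM to -0.157 for H3K4me3. The log2 ratio of H3K27ac-covered bases in GD15M_LM over GD15M_CM turned to -0.54 with that window.

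MEIS1 (chr3:75485024-75625855) was marked at its upper end and, beyond its lower end, by separate regions that did not reach the gene. The H3K4me3 region over the upper end, chr3:75612096-75628432, ran from 127.1 to 143.4 kb and was 1 peak of 16.3 kb in GD15M_LM but 2 peaks in each of the other tissues. Its highest peak had a fold enrichment of 19.7 in GD15M_CM, 41.0 in GD15M_LM and 20.1 in CD15M_CM, at percentiles of 89.0, 99.4 and 82.9. The region from -6.88 to -1.90 kb gave another order, with 87.0, 87.6 and 95.5. GD15M_LM thus ranked first at the upper end and CD15M_CM on the opposite side of the gene. For H3K27ac the highest peak was at a percentile of 98.8 in GD15M_CM, 99.8 in GD15M_LM and 99.7 in CD15M_CM. Peaks inside the gene, further than 3 kb from both ends, numbered 9 in GD15M_CM, 17 in GD15M_LM and 19 in CD15M_CM for H3K27ac, and covered 11.0, 17.02 and 20.3 kb. For H3K4me3 they numbered 1, 8 and 1. The 1 H3K4me3 peak of each circular muscle list was part of the upper-end region, which was a single peak in GD15M_LM. The longest H3K27ac peaks counted as inside, such as those of 3.79 and 4.34 kb in GD15M_CM, also lay in that region. The counts thus depend on how peaks were split. The long noncoding RNA genes LOC106509797, LOC110259996 and LOC106509799 lie in the window, 2461, 1815 and 563 bases from MEIS1.

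MEIS2 (chr1:134013642-134223013) had its strongest H3K4me3 in a region that reached over the lower end. That region, chr1:134001465-134022359, was 1 peak of 20.9 kb in GD15M_LM, 4 peaks in GD15M_CM and 5 peaks in CD15M_CM. Its highest peak had a fold enrichment of 14.2, 41.2 and 17.3 in GD15M_CM, GD15M_LM and CD15M_CM, at percentiles of 77.0, 99.4 and 78.1. In GD15M_CM that peak lay outside the gene, from -10.8 to -8.77 kb, and the peak over the lower end was at 71.5, while in GD15M_LM and CD15M_CM the highest peak was the one over the lower end. Both circular muscle lists were near each other and the highest peak of GD15M_LM was 22.4 points above that of GD15M_CM. H3K27ac showed another pattern: the percentiles of 98.4, 99.4 and 99.6 were close, but all were near the top of the scale. The covered bases were 9.96 kb in GD15M_CM, 21.0 kb in GD15M_LM and 23.8 kb in CD15M_CM. Inside the gene there was 1 H3K27ac peak in GD15M_CM, 9 in GD15M_LM and 12 in CD15M_CM, and at most 5.49 kb were covered there, in GD15M_LM. LOC110259520, a protein-coding gene, shares 999 bases with MEIS2, and LOC110261471, a long noncoding RNA gene, lies 4416 bases away.

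**Figure D2:**
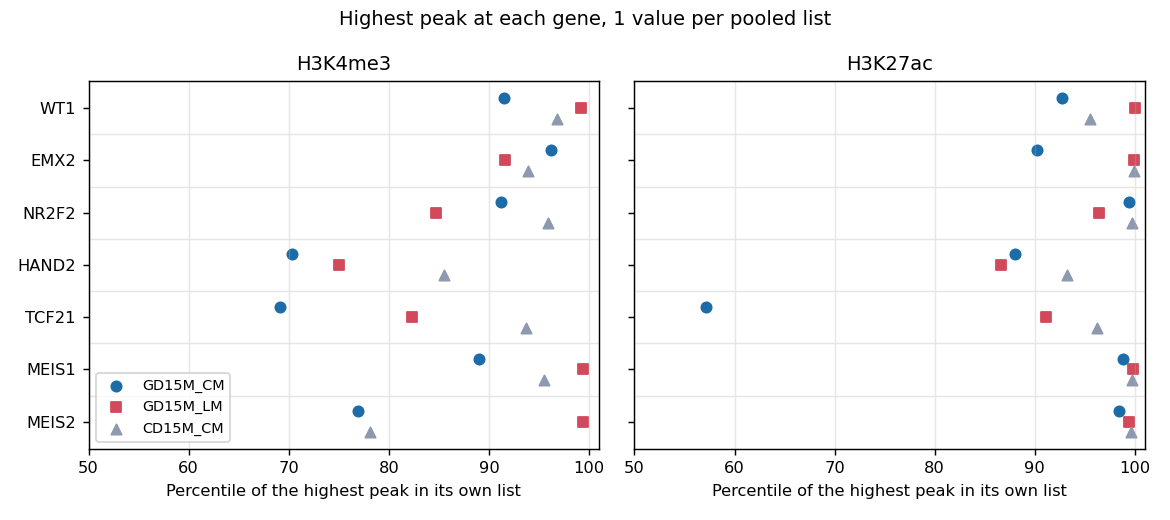
Percentile of the highest peak at each of the 7 genes, H3K4me3 on the left and H3K27ac on the right, with 1 point per pooled list. The x axis starts at 50 because no value was below 57.1; circles are GD15M_CM, squares GD15M_LM and triangles CD15M_CM. MEIS2 H3K4me3 in GD15M_LM (99.4) stood apart from both circular muscle lists (77.0 and 78.1), and TCF21 H3K27ac in GD15M_CM (57.1) was the lowest point.

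The next comparison asks whether the layers of the pregnant myometrium differed at these genes. Between GD15M_LM and GD15M_CM, the highest H3K4me3 peak ranked higher in GD15M_LM at 5 of the 7 genes (48.9% of all genes) and higher in GD15M_CM at EMX2 and NR2F2 (51.1% of all genes). At TCF21, MEIS1 and MEIS2 GD15M_LM was at least 10 percentile points higher, by 13.1, 10.4 and 22.4 points. These are 3 of 7 genes, where 19.3% of all genes with a peak in either list differed by as much in that direction. WT1, EMX2 and NR2F2, at 91.5, 96.2 and 91.2 in GD15M_CM, could not be 10 points higher, since percentiles have an upper limit. No gene of the 7 was 10 points higher in GD15M_CM, against 19.2% of all genes. The median difference was 7.69 points for the 7 genes and -0.20 for all genes. With the strict peak threshold, and also with neighbouring peaks joined, 5 genes were at least 10 points higher in GD15M_LM, and the strict threshold put 1 gene higher in GD15M_CM. With the 50 kb window 2 genes were higher in GD15M_LM and 1, TCF21 at -11.6 points, in GD15M_CM. NR2F2 turned to 3.65 points higher in GD15M_LM when peaks were ranked by −log10 p. Since each list was called on tissue, fewer cells of a type and less of a mark per cell cannot be told apart.

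H3K4me3 also covered more bases in GD15M_LM than in GD15M_CM at 7 of 7 genes, as at 61.6% of all genes. The ratio was 1.9 at TCF21, 1.86 at MEIS2, 1.43 at MEIS1, 1.40 at WT1, and between 1.03 and 1.09 at EMX2, NR2F2 and HAND2. Thus 2 genes exceeded 1.5-fold, against a background of 15%, and none was as much more covered in GD15M_CM, against 6.64% of all genes. The median ratio was 1.40 for the 7 genes and 1.06 for all genes with a peak in both lists, and the GD15M_LM list as a whole covered 1.09 times as many bases. Scaled to the list totals, EMX2, NR2F2 and HAND2 were no longer more covered in GD15M_LM. Peaks of that list were also longer, with a median of 1007 bp against 760 bp in GD15M_CM.

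For H3K27ac the direction of all genes was the opposite. The GD15M_LM list covered 0.777 times the bases of the GD15M_CM list, and the median ratio of all genes was 0.793, whereas the median of the 7 genes was 1.27. MEIS2 (2.11) and TCF21 (1.76) exceeded 1.5-fold in GD15M_LM, against 11.7% of all genes, but TCF21 turned to a log2 ratio of -0.54 with the 50 kb window. MEIS1 and WT1 were at 1.35 and 1.27, EMX2 and NR2F2 at 1 and 1.04, and HAND2 at 0.815. None of the 7 genes was 1.5-fold more covered in GD15M_CM, against 36.2% of all genes. By rank, 5 of the 7 genes were higher in GD15M_LM, against 42.6% of all genes, and NR2F2 and HAND2 were higher in GD15M_CM, against 57.4%. Of those 5, TCF21, MEIS1 and MEIS2 had their highest peaks in different regions in the layers. In the region of the GD15M_CM peak, GD15M_CM ranked higher at TCF21 (57.1 against 55.3), MEIS1 (98.8 against 98.1) and MEIS2 (98.4 against 91.5). At WT1 and EMX2 it ranked lower there too. TCF21 was the 1 gene at least 10 points higher in GD15M_LM (34.0 points, background 20.4%), and EMX2 differed by 9.70 points. Percentiles have an upper limit, and only TCF21 and HAND2 had room for 10 points. In GD15M_CM, EMX2 was already at 90.2 and WT1, NR2F2, MEIS1 and MEIS2 were at 92.8 to 99.4. No gene was 10 points higher in GD15M_CM, against 31.1% of all genes. With the strict threshold, 5 genes were higher in GD15M_LM and 1 in GD15M_CM, and with the 50 kb window 0 genes were higher in GD15M_LM.

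The comparison of CD15M_CM with GD15M_CM asks what differed in the circular muscle between the cycle and pregnancy. It shares the GD15M_CM lists with the comparison of the layers, so both move with any peculiarity of those lists. H3K4me3 ranked at least 10 points higher in CD15M_CM at TCF21 (24.6 points) and HAND2 (15.2 points), 2 of 7 genes against a background of 22.3%. That share is close to the background. It was 4 genes with the strict threshold and 1 with the window of 3 kb or of 50 kb. At the reported setting, WT1, EMX2 and NR2F2 were too near the top of the scale in GD15M_CM to be 10 points higher. By any amount, 6 of the 7 genes ranked higher in CD15M_CM (59.2% of all genes) and EMX2 ranked higher in GD15M_CM (40.8%), and none was 10 points higher in GD15M_CM (11.5%). Of the others, WT1, NR2F2 and MEIS1 were 4.66 to 6.53 points higher in CD15M_CM, MEIS2 was 1.16 points higher, and EMX2 differed by -2.37 points. At MEIS1 the highest peak lay over the upper end in GD15M_CM but beyond the lower end in CD15M_CM. In the upper-end region GD15M_CM ranked higher, at 89.0 against 82.9, and in the other region lower, at 87.0 against 95.5. The highest peaks at HAND2 also lay in different regions, and CD15M_CM ranked higher in both. H3K4me3 covered more bases in CD15M_CM at 7 of 7 genes, as at 74.8% of all genes, but at none by 1.5-fold (background 15.5%; 3% of all genes were 1.5-fold more covered in GD15M_CM), and the median ratio of 1.14 was near the 1.12 of all genes. Scaled to the list totals, WT1, EMX2, NR2F2 and MEIS1 were no longer more covered in CD15M_CM.

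For H3K27ac the highest peak ranked higher in CD15M_CM at 7 of 7 genes, against 51.1% of all genes, while 48.9% of all genes ranked higher in GD15M_CM and 22.8% by at least 10 points. The highest peaks of both lists did not always lie in the same region. In the region of the GD15M_CM peak, GD15M_CM ranked higher at WT1 (92.8 against 92.5 in CD15M_CM) and HAND2 (88.0 against 62.1). The same was true of MEIS1 (98.8 against 78.2) and MEIS2 (98.4 against 88.0). At EMX2, NR2F2 and TCF21 it ranked lower there too. WT1 turned to -0.223 points with the 3 kb window and to -3.58 with the 50 kb window. TCF21 alone exceeded 10 points (39.1, background 25.5%). EMX2 differed by 9.69, HAND2 by 5.17 and the other 4 genes by 0.312 to 2.77. Only TCF21 and HAND2 had room for 10 points, since the other genes were at 90.2 to 99.4 in GD15M_CM. Small differences at those genes therefore do not show that the lists were alike. The covered bases do not have that limit. TCF21, MEIS2 and MEIS1 were covered 2.57, 2.39 and 1.59 times as much in CD15M_CM, 3 of 7 genes against a background of 22.4%, and no gene was 1.5-fold more covered in GD15M_CM (background 13.2%). WT1 was at 1.34, NR2F2 and EMX2 at 1.14 and 1.10, and HAND2 at 0.951. The median ratio was 1.34 for the 7 genes and 1.04 for all genes.

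**Figure D3:**
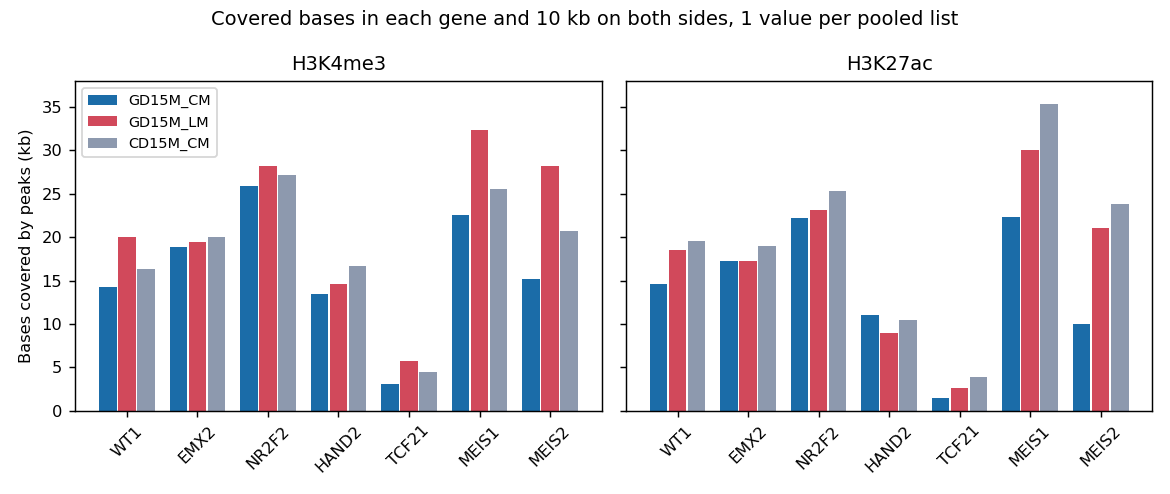
Bases covered by H3K4me3 (left) and H3K27ac (right) peaks, in kb, in each gene and the 10 kb on both sides; bars start at 0 and each is 1 pooled list. GD15M_CM had the shortest H3K4me3 bar at 7 of 7 genes and the shortest H3K27ac bar at 6, EMX2 by a tie with GD15M_LM at 17.2 kb, with HAND2 (11.0 kb) the exception.

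**Figure D4:**
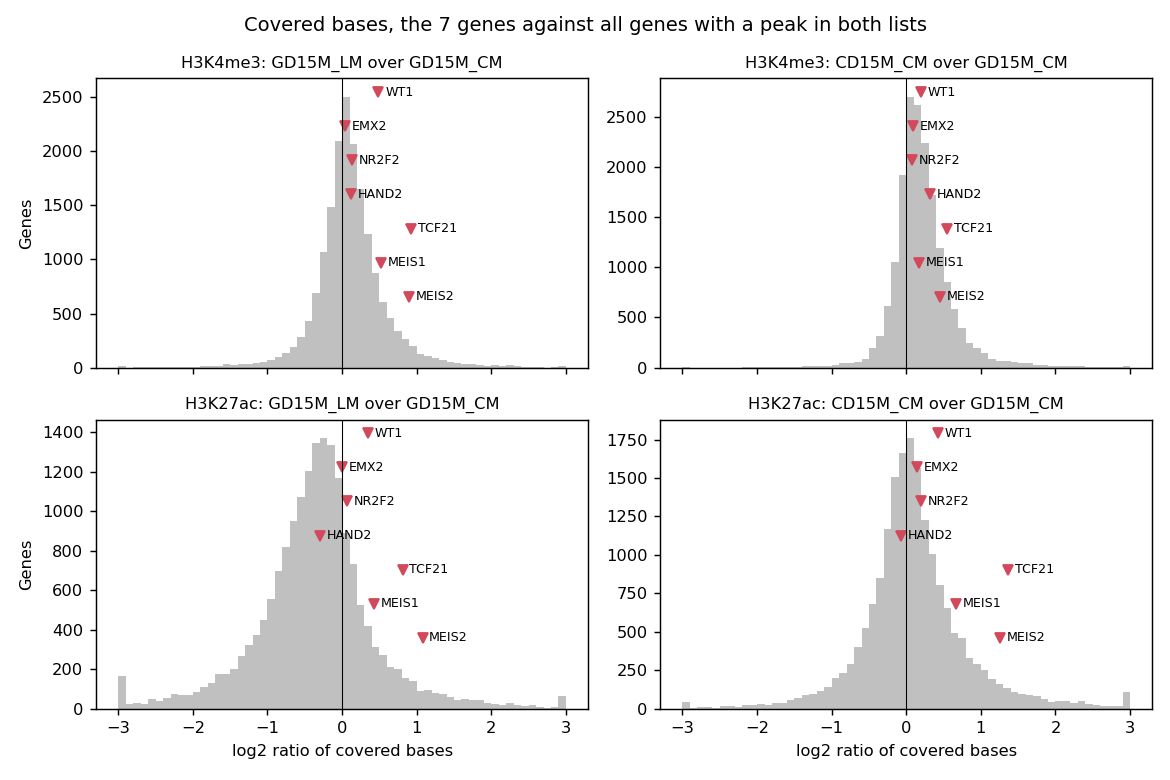
The log2 ratio of covered bases between 2 lists on the x axis and the number of genes on the y axis, for all genes with a peak in both lists (grey; values beyond the axis are in the outermost bars), with the 7 genes as red marks at arbitrary heights. For H3K27ac in GD15M_LM over GD15M_CM the grey distribution lay below 0 (median ratio 0.793), while MEIS2 (2.11-fold) and TCF21 (1.76-fold) lay well to its right.

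Joined across tissues, the peaks at the 7 genes formed 49 H3K4me3 regions. Of these, 21 (42.9%, 95% Wilson interval 30.0 to 56.7%, for counting error only) were found in all 3 tissues, close to the 44.8% of regions at all genes. A further 21 were found in GD15M_LM alone, 42.9% against 11.7% at all genes. MEIS1 had 10 of them, MEIS2 had 6, WT1 had 3, and EMX2 and TCF21 had 1 each. They were short and weak, with a median length of 0.487 kb and percentiles from 2.48 to 56.9, whereas regions in all 3 tissues had a median length of 3.48 kb. Most lay near a stronger peak, such as 8 between 117.3 and 126.0 kb of MEIS1, next to its H3K4me3 region at the upper end. Regions of 1 gene are neighbours and are not independent of each other. Of the others, 2 H3K4me3 regions were found in CD15M_CM alone (4.08%, against 17.2% at all genes) and 1 in GD15M_CM alone (2.04%, against 10.2% at all genes). Counted by number of tissues, 24 regions were found in 1 tissue (39.1% at all genes) and 4 in any 2 (16.1% at all genes).

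There were 93 H3K27ac regions, and 41 of them (44.1%, 34.4 to 54.2%) were found in all 3 tissues, against 32.7% at all genes. MEIS1 had 12 of the shared regions, MEIS2 had 7, NR2F2 and HAND2 had 6 each, WT1 had 4, and EMX2 and TCF21 had 3 each. Regions held by GD15M_LM and CD15M_CM but missing from GD15M_CM numbered 18 (19.4%, against 7.31%), and 15 of these were at MEIS1 and MEIS2. Another 18 were found in CD15M_CM alone (19.4%, against 19.6%), 8 in GD15M_LM alone (8.60%, against 5.17%), and 1, at HAND2, in GD15M_CM alone (1.08%, against 21.6%). In any 1 tissue there were 27 regions (46.4% at all genes) and in any 2 there were 25 (21% at all genes). In all, GD15M_CM held 49 of the 93 regions, GD15M_LM 68 and CD15M_CM 83, where the shares at all genes were 67.9%, 46.9% and 71.5%.

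**Figure D5:**
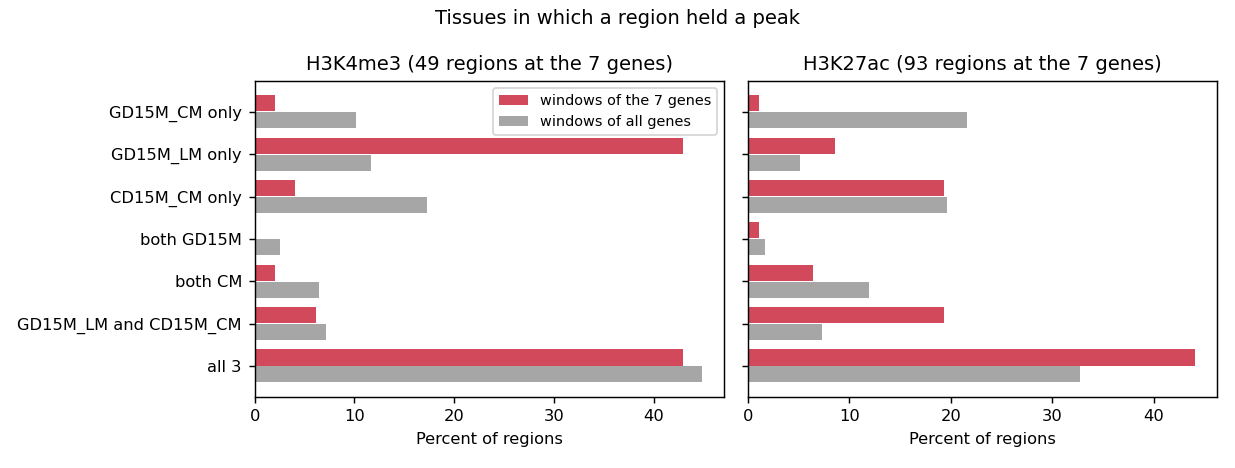
Percent of regions (x axis) found in each combination of tissues (y axis), for H3K4me3 on the left and H3K27ac on the right; red bars are regions at the 7 genes and grey bars regions at all genes. H3K4me3 regions of GD15M_LM alone made up 42.9% at the 7 genes and 11.7% at all genes, and H3K27ac regions of GD15M_CM alone 1.08% and 21.6%.

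The H3K4me3 peaks were compared with H3K27ac of the same tissue. In GD15M_CM, 30 of 35 H3K4me3 peaks (85.7%, Wilson interval 70.6 to 93.7%) overlapped an H3K27ac peak by at least 1 bp, against 69.3% at all genes. With the strict threshold, which leaves fewer H3K27ac peaks to overlap, the share in GD15M_CM was 50%. The share at all genes was not computed at that threshold, so the 69.3% is not its background. In GD15M_LM it was 37 of 45 (82.2%, 68.7 to 90.7%, background 69.3%) and in CD15M_CM 39 of 40 (97.5%, 87.1 to 99.6%, background 68.1%). The interval of GD15M_LM includes the share at all genes. Peaks of 1 gene are neighbours and not independent, with 16 of the 45 in GD15M_LM at MEIS1. The intervals of the 3 tissues are therefore no test against that share. The single H3K4me3 peak without H3K27ac in CD15M_CM was at HAND2, from -3.97 to -3.35 kb. Conversely, 76.1%, 79.8% and 55.4% of the H3K27ac peaks overlapped H3K4me3 in GD15M_CM, GD15M_LM and CD15M_CM, against 36.4%, 48.9% and 37.8% at all genes. H3K27ac peaks inside the genes, further than 3 kb from both ends, were found only at MEIS1, MEIS2 and WT1. HAND2 and TCF21 are shorter than 3 kb, so no peak could be counted inside them. At EMX2 the 3 kb from each end leave little of the gene. For these genes the absence of such peaks follows wholly or largely from gene length. The H3K27ac peaks inside genes numbered 36 of 92 in CD15M_CM (19, 12 and 5), 31 of 84 in GD15M_LM and 11 of 67 in GD15M_CM. The share of such peaks at all genes is not given.

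Other genes of the same families and pathway were taken by name from lists. Of 6 paralogs of these genes, 4 had an H3K4me3 peak and 3 an H3K27ac peak in each tissue, and 3 ranked at least 10 points higher in GD15M_LM than in GD15M_CM for H3K4me3 (19.3% of all genes). EMX1 and HAND1, named after their values were seen, had no peak of either mark in any list, in contrast to EMX2 and HAND2. All 9 binding partners, the PBX, PKNOX and E-protein genes, had peaks of both marks in every tissue. Of these, 1 ranked at least 10 points higher in GD15M_LM than in GD15M_CM for H3K4me3 (19.3% of all genes) and none ranked as much lower (19.2%), with a median difference of 0.92 points. Of 14 other mesenchyme factors, 8 ranked at least 10 points higher in GD15M_LM for H3K4me3 (19.3% of all genes) and 3 in GD15M_CM (19.2%), with a median difference of 11.9 points. Between CD15M_CM and GD15M_CM the same list had 4 genes higher in CD15M_CM (22.3% of all genes) and 1 in GD15M_CM (11.5%).

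By the rank of covered bases over the 6 lists, the gene of these lists most like WT1 was GATA2, with a mean absolute difference of 0.805 rank percentage points. For EMX2 it was PBX2 (0.322 points), for NR2F2 and MEIS1 it was HOXA10 (0.157 and 0.208 points), and for MEIS2 it was HOXA11 (1.62 points). HAND2 was most like TCF4 (1.06 points). These points share the libraries and their depth. Every member but TCF21 was in the top 5% of genes by H3K4me3-covered bases, where ranks differ by at most 5 points. Small distances there do not show that the genes were marked alike. TCF21 stood apart: its nearest gene was TWIST1, 4.53 points away, and the other 6 genes were 27.9 to 32.7 points away.

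The tissue labels were compared with marker genes, by H3K4me3 within 1 kb of either gene end. All 9 smooth muscle markers had a peak in each tissue, with median percentiles of 74.8 in GD15M_CM, 90.9 in GD15M_LM and 88.4 in CD15M_CM. In the gene and 10 kb on both sides, 8 of the 9 were at least 1.5-fold more covered by H3K4me3 in GD15M_LM than in GD15M_CM, against 15% of all genes. Of 8 epithelial markers, 8, 7 and 8 had a peak in the same order, with ranges of 47.3 to 83.2, 0 to 59.4 and 5.62 to 87.4. These markers were thus not absent from the muscle. In the gene and 10 kb on both sides, their highest H3K4me3 value was 83.2, 99.1 and 92.7. There, 6 ranked at least 10 points higher in GD15M_CM than GD15M_LM for H3K4me3 (19.2% of all genes) and 6 for H3K27ac (31.1%). For each mark 1 went the other way (19.3% and 20.4%). All 8 were 1.5-fold more covered by H3K27ac in GD15M_CM (36.2%). Against CD15M_CM, 5 ranked higher in GD15M_CM for H3K27ac (22.8%) and 2 lower (25.5%). Mesothelial markers, relevant to WT1, had a peak at 4, 4 and 5 of 7 genes, with medians of 48.0, 12.9 and 53.3 and ranges from 0 up to 87.8, 72.0 and 85.4; CALB2 and UPK1B were at 0 in all 3 tissues, LRRN4 was at 0 in GD15M_LM and UPK3B in GD15M_CM. All 6 mural markers had a peak in each tissue (medians 66.8, 77.9 and 73.9), as did 7 of 8 endothelial markers (60.1, 62.4 and 65.1), with EMCN at 0. For H3K27ac in the gene and 10 kb on both sides, 3 of the 6 mural markers ranked at least 10 points higher in GD15M_LM than in GD15M_CM (20.4% of all genes; median difference 16.03 points) and 4 of 6 in CD15M_CM (25.5%, median 28.5 points). T cell markers had a peak at 5, 5 and 4 of 5 genes (65.9, 57.5 and 52.6), with CD8A at 0 in CD15M_CM. In the gene and 10 kb on both sides, 4 of the 5 ranked at least 10 points higher in GD15M_CM than in CD15M_CM for H3K4me3 (11.5% of all genes). None ranked as much lower (22.3%), and 4 were at least 1.5-fold more covered in GD15M_CM (3%). Against GD15M_LM, 2 ranked higher in GD15M_CM (19.2%) and none lower (19.3%). The part of these cell types in the values of the 7 genes was not tested.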

How the data were processed

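Pig myometrium was profiled by CUT&Tag for H3K4me3 and H3K27ac, with IgG as control, in 3 groups of 2 gilts. The authors mapped reads to Sus scrofa 11.1 with BWA 0.7.17-r1188, removed duplicates and poorly mapped reads with SAMtools 1.9 and Picard 2.8.3, pooled the gilts and called peaks with MACS2 2.2.6. The fold enrichment deposited for each peak is a ratio of signal to background as the peak caller of the authors gave it, the control of the peak calls not being given in the sources used here, and the −log10 p-values deposited beside it come from the same run of the authors. The header of the −log10 p column was unreadable, so it was identified by its place in the usual MACS2 column order and by its values; a −log10 q column was not used. Peak lengths were deposited in bases. Because gilts were pooled, no value per gilt exists in the lists and no test between groups was made. The lists hold no read counts, and the study's read totals per library were not used here; Wilson intervals cover counting error only.

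Genes and coordinates were those of RefSeq for Sscrofa11.1. For each gene the highest fold enrichment percentile within a list (0 without a peak) and the bases covered by peaks in the gene and 10 kb on both sides were computed. Differences of at least 10 percentile points, or 1.5-fold in covered bases, were counted and set beside the share of all genes with a peak in either list. Peaks of 3 tissues that overlapped were joined into regions. Percentiles were used because fold enrichments of separate lists are not on a common scale. They have an upper limit, so a gene near the top of 1 list could not be 10 points higher in another. The 7 genes were all named by rule, related genes by their likeness to a member, and markers from written lists; the members and lists were chosen with earlier results of these data known. MSLN and ZAP70 were not placed. Sequences were not used here, so planned motif counts were not made. Alternatives were a stricter peak threshold (5-fold enrichment or more, with −log10 p no lower than 10), joining of peaks less than 1 kb apart, windows of 3 kb and 50 kb, ranking by −log10 p, equal list lengths, an overlap of at least 50%, and other sizes of difference; scaling by list totals and the 200 kb neighbourhood were chosen after seeing the data. NumPy 2.4.6, pandas 2.3.3, SciPy 1.17.1 and Matplotlib 3.10.9 were used under Python 3.11.15; the overlap and percentile code was tested on simulated data.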

Additional observations from a re-analysis of the deposited data

How the results depend on the processing

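Of 135 counts and shares recomputed under the alternatives, 102 stayed within 1.5 times the reported count or within the counting interval of the share, and of 336 differences at single genes 305 kept their direction, 6 went to 0 and 25 turned. Of those 25, 18 were under the threshold before and after, and 7 were past it in either setting. Of these 7, 3 were H3K27ac at HAND2 with the strict threshold: 25.2 percentile points between GD15M_LM and GD15M_CM, and log2 ratios of covered bases of 2.25 in GD15M_LM and 1.85 in CD15M_CM over GD15M_CM. The other 4 were at TCF21 with a 50 kb window: -11.6 percentile points (H3K4me3) and -5.93 points (H3K27ac) between GD15M_LM and GD15M_CM, -0.157 points (H3K4me3) between CD15M_CM and GD15M_CM, and a log2 ratio of H3K27ac-covered bases of -0.54 in GD15M_LM over GD15M_CM. With that window, 1 gene ranked higher in GD15M_CM than GD15M_LM and 1 in CD15M_CM than GD15M_CM for H3K4me3, and 0 in GD15M_LM and 0 in CD15M_CM for H3K27ac. With the strict threshold, H3K4me3 ranked higher at 5 genes in GD15M_LM and 1 in GD15M_CM, and at 4 in CD15M_CM, with 1 gene more covered in GD15M_LM, and H3K27ac at 5 in GD15M_LM, 1 in GD15M_CM and 4 in CD15M_CM. The strict threshold also gave 32.4% of H3K27ac regions in all 3 tissues and H3K4me3 peaks with H3K27ac at 50% in GD15M_CM and 69.2% in CD15M_CM. With peaks joined, H3K4me3 ranked higher at 5 genes in GD15M_LM, with 4 more covered in GD15M_LM and 1 in CD15M_CM; H3K27ac ranked higher at 3 in GD15M_LM and 2 in CD15M_CM; 66.7% of H3K4me3 regions were in all 3 tissues, and the marks coincided at 95%, 90.9% and 100% in GD15M_CM, GD15M_LM and CD15M_CM. With a 3 kb window 1 gene ranked higher in CD15M_CM for H3K4me3 and the marks coincided at 100% in CD15M_CM. Equal list lengths gave 3 genes higher in GD15M_LM for H3K27ac. A difference of 5 points gave, for H3K4me3, 1 gene higher in GD15M_CM than GD15M_LM and 4 in CD15M_CM, and, for H3K27ac, 3 in GD15M_LM and 3 in CD15M_CM, and a 2-fold difference left 0 genes more covered in GD15M_LM for H3K4me3 and 1 for H3K27ac. Scaling to the list totals, chosen after seeing the data, gave 4 genes more covered in GD15M_LM for H3K27ac. The shares at all genes were not recomputed under the alternatives, so the recomputed counts and shares have no background beside them. Apart from the changed sizes of difference, the cause of these moves was not tested. No paired analysis was possible because the gilts were pooled before peak calling, and for the same reason no gilt could be left out.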

Other observations

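H3K27ac regions between 10 and 200 kb from the genes, a distance chosen after the data were seen, were counted as values only. Such regions may belong to other genes. No share at all genes was computed at this distance, so the counts have no background. The H3K27ac lists also differed in size, with 57010 peaks for GD15M_LM, 79877 for GD15M_CM and 82037 for CD15M_CM. Whether the counts per tissue go beyond these list sizes was not tested. WT1 had 38, of which 13 were held by all 3 tissues and 15 by CD15M_CM alone, and 14 were held by GD15M_CM, 22 by GD15M_LM and 36 by CD15M_CM. EMX2 had 30, and here GD15M_CM held the most, 23, against 10 in GD15M_LM and 19 in CD15M_CM, with 7 in GD15M_CM alone. MEIS1 had 20, of which GD15M_CM held 8, GD15M_LM 18 and CD15M_CM 16, and no protein-coding gene lies in that neighbourhood. TCF21 had 20, held by GD15M_CM and GD15M_LM at 10 each and by CD15M_CM at 17. NR2F2 had 11, all of which CD15M_CM held, while HAND2 had 1 and MEIS2 had 2.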
